A study of Mus musculus with 104 samples.

Results

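The LXR, RXR and PPAR receptors of mouse liver macrophages are described here by the RNA levels of 6 genes, Nr1h3, Nr1h2, Rxra, Rxrb, Pparg and Ppard. They were chosen by symbol from the 24940 genes that each of 8 deposited tables lists, and all 6 were found in every table and passed the filter on low values in every table. Nr1h3 and Nr1h2 encode LXR-alpha and LXR-beta, nuclear receptors that bind oxidized sterols and the cholesterol precursor desmosterol and turn on genes of cholesterol efflux and fatty acid synthesis. Pparg and Ppard encode PPAR-gamma and PPAR-delta, which respond to fatty acids and their derivatives and control lipid uptake and oxidation. Rxra and Rxrb encode RXR-alpha and RXR-beta, the partners with which LXRs and PPARs bind DNA as heterodimers. In the liver, LXR-alpha is known as a factor that Kupffer cells, the resident macrophages of the sinusoids, depend on for their identity, and PPAR-gamma is known for lipid handling in macrophages of other tissues.

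The study followed how monocytes become Kupffer cells, in 104 libraries of poly(A) RNA in 47 groups. Repopulating liver macrophages (RLMs) were taken from Clec4f-cre/Rosa26iDTR mice 12, 24, 48, 72, 168 and 336 h after diphtheria toxin had removed the Kupffer cells, in which Cre driven by the Kupffer cell gene Clec4f turns on the toxin receptor. Kupffer cells came from mice of the same genotype given PBS. They carry a time of 72 h, so only the 72 h RLMs match them in time. Monocytes with high Ly6C came from the blood of untreated C57BL/6J mice, 1 of 4 libraries being titled as a pool. Nr1h3 knockout Kupffer cells, TIM4+ or TIM4-, came from Nr1h3 flox/flox mice with Clec4f-cre +/-, and their TIM4+ controls from Nr1h3 flox/flox mice. A separate pair of groups were bone marrow-derived macrophages (BMDMs) labelled Nr1h3 knockout or wild type, cultured for 7 days. Smad4 knockout Kupffer cells, TIM4+ or TIM4-, came from Smad4 flox/flox mice with Clec4f-cre +/-, and their controls from Smad4 flox/flox mice. Liver cells of C57BL/6J mice were sorted as STAB2-low, STAB2-intermediate or STAB2-high, STAB2 being a receptor of sinusoidal endothelium.

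Most of the other groups were cultured cells. Smad4 knockout and control BMDMs were grown for 4 days and were treated for 24 h with TGF-beta, with the Notch ligand DLL4, with DLL4 and DAPT (a gamma-secretase inhibitor, which blocks Notch cleavage), with DLL4 and TGF-beta, or left untreated. SMAD4 carries the signal of TGF-beta to DNA. The knockout BMDMs carry a Clec4f-cre label, whereas the series text names LysM-cre for them. C57BL/6J BMDMs received DLL4, DLL4 with TGF-beta, or both of these with the synthetic LXR ligand DMHCA, for 24 h (4 days of culture) or 72 h (6 days), or DMHCA alone for 24 h, with untreated cells at each time. The 72 h groups are named so in their titles and carry a 24 h treatment label, and the titles were followed. Bone marrow monocytes were cultured for 2 days with DLL4, desmosterol, DLL4 with TGF-beta, or all of these for 48 h, or without them. They are labelled C57BL/6J, and the column names of their table call them male BMDMs, where the labels, which were followed, say monocytes. In vivo, RLMs were collected 24 h after toxin from mice treated with the gamma-secretase inhibitor LY411575 or with antibodies to DLL1 and DLL4, each beside its own controls. The controls carry the inhibitor or antibody in a label, and here too the titles were followed. The C57BL/6J label of these RLMs disagrees with the series text, which names Clec4f-Cre/DTR mice for them. The table's column names call the LY411575 libraries and their controls female, the antibody libraries and their controls male, and all of them fasted. No label says which replicate libraries came from separate animals or cultures, so p-values measure the spread between libraries, which may in part be technical. Groups hold 2 to 4 libraries.

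Levels are in TPM, transcript levels scaled for transcript length and library size, so that levels of different genes can be set side by side within a table. Tests were run on log2(TPM + 1) within each table with limma. A receptor is said to have risen or fallen when the Benjamini-Hochberg adjusted p over all genes tested was below 0.05 and the change was at least 2-fold. Differences are log2 differences with their standard error, and they understate the change of genes at a few TPM. The listed TPM of a library summed to between 510684 and 574479. The libraries held 7830287 to 27776728 recovered reads each. The lowest value of a receptor in any library, 1.29 TPM for Nr1h3, rested on 19 reads.

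The labelled cell types were checked against marker genes. The summed TPM of 5 Kupffer cell markers (Clec4f, Vsig4, Timd4, Marco and Cd163) was 7419.6 to 9182 in Kupffer cells and 4.02 to 6.67 in blood monocytes, where Clec4f and Marco were listed at 0. The 4 monocyte markers summed to 5.24 to 10.9 in Kupffer cells and 3342 to 4743 in monocytes. Kupffer libraries also held 401 to 5062 TPM of 8 hepatocyte markers and 827 to 866 TPM of 7 sinusoidal endothelium markers, against 1.36 to 5.15 and 3.98 to 6.08 TPM in monocytes. Stellate cell markers summed to 55.9 to 78.6 TPM and lymphocyte markers to 8.38 to 45.4 TPM in Kupffer cells, against 0 to 0.0210 and 1.78 to 3.76 TPM in monocytes. Erythroid markers stood at 12.6 to 47.9 TPM in Kupffer cells and 626 to 2777 TPM in monocytes. All receptor calls between Kupffer cells and monocytes held without any 1 of the Kupffer libraries. In bulk RNA, fewer cells of a type and less RNA per cell cannot be told apart, and the part of other cells in the receptor levels was not tested.

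In the mm10 build, the transcripts measured in 6 of the tables were Nr1h3 on chromosome 2 (91184061 to 91195035, minus strand), Nr1h2 on chromosome 7 (44549616 to 44553965, minus), Rxra on chromosome 2 (27677201 to 27763319, plus), Rxrb on chromosome 17 (34031812 to 34038403, plus), Pparg on chromosome 6 (115360951 to 115490401, plus) and Ppard on chromosome 17 (28232754 to 28301469, plus). The STAB2 and Smad4 BMDM tables list other isoforms for every receptor but Ppard, and levels are therefore not compared across tables. Another listed gene, 1810013A23Rik, lies within the span of Ppard on the same strand, and reads of the pair may not be fully separable. The values are sums over exons, so they do not show which exons were read.

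The promoters of Nr1h3 and Rxra are shown because these receptors rose when cells were given DLL4, Nr1h3 in 5 and Rxra in 2 of the 5 comparisons of DLL4 with untreated cells. Notch acts on DNA through the protein RBPJ, whose binding sites have TGGGAA as their core. Each window runs from 250 bases before to 50 bases after a RefSeq start site in GRCm38.p6, the assembly for which mm10 is the browser name, and is printed 5′ to 3′ on the strand of the gene. Capitals mark the core, read on both strands (TTCCCA on the other). The Nr1h3 window is chr2:91194986-91195285 on the minus strand, with cores that begin 194 and 167 bases before the start site. The Rxra window is chr2:27676951-27677250 on the plus strand, with 1 core that begins 248 bases before the start site.
Nr1h3 promoter: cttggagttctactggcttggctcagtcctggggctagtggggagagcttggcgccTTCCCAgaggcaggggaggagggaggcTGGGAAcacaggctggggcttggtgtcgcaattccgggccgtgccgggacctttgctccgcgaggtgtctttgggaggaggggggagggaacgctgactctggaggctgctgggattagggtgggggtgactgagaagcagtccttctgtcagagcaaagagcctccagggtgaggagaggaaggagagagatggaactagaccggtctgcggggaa
Rxra promoter: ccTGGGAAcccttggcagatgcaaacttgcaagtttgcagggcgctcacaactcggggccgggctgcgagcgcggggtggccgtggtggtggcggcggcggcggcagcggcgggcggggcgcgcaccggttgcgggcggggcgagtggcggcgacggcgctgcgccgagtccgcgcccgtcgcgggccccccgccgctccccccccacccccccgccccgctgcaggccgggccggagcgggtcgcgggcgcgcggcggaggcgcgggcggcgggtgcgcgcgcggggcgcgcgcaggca
The core was present in 8397 of 32851 mouse promoter windows of this length (25.6%), and in 5 of the 11 windows of the 6 receptors. Both Nr1h3 windows are among these, and they overlap and hold the same cores, so this promoter is counted more than once. The other matches are in the printed Rxra window, the Ppard window and 1 Pparg window. In Ppard the core lies after the start site. The Pparg window belongs to a start site (115422066) at which no transcript measured here begins. The other Rxra start site (27709292 on the plus strand), from which the STAB2 and Smad4 BMDM tables count, has 0 cores in its window, which is not printed. Both windows of Rxrb and the 1 window of Nr1h2 hold 0 as well. A match is a match of letters and no measurement of binding. The palindrome GTCTAGAC, to which SMAD proteins bind, was in 0.213% of all windows. The LXR element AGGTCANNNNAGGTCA was in 0.0152% and the PPAR element AGGTCANAGGTCA in 0.0396%. None of these 3 was found in the 11 windows. With matches of the core alone, no motifs overlapped there, and nothing follows from a missing match about the factor.

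The 6 receptors differed in how far their levels ranged within a table. In the time course the highest group mean of Nr1h3 was 107.5-fold the lowest, and that of Nr1h2, the other LXR, 1.47-fold. This ratio was 5.46 for Rxra, 1.78 for Rxrb, 8.51 for Pparg and 2.74 for Ppard. Over the 8 tables it lay between 1.65 and 107.5 for Nr1h3 and between 1.16 and 1.49 for Nr1h2. In 49 comparisons between groups, the receptors gave 294 tests, of which 57 were called, 42 of them higher in the first-named group and 15 lower. That is 19.4% of the receptors' tests, where 10.1% of the tests of all genes were called. The receptors were chosen with earlier results of these data known, so these shares are no test of the receptors as a group. The calls include Nr1h3 in BMDMs labelled Nr1h3 knockout, where the gene itself was the target. Nr1h3 rose in 17 and fell in 4 of the 49 comparisons, Pparg rose in 12 and fell in 4, and Rxra rose in 9 and fell in 3. Ppard rose in 2 and fell in 4, and Rxrb rose in 2. Nr1h2 was called in 0 of the 49 comparisons by limma and in 0 by limma-voom, with an unadjusted limma p below 0.05 in 21 and an adjusted one in 20, all of them below 2-fold. Many of these comparisons share their control libraries, so the counts are not independent. The other genes of the RXR and PPAR families, Rxrg and Ppara, passed the filter in no table.

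**Figure D1:**
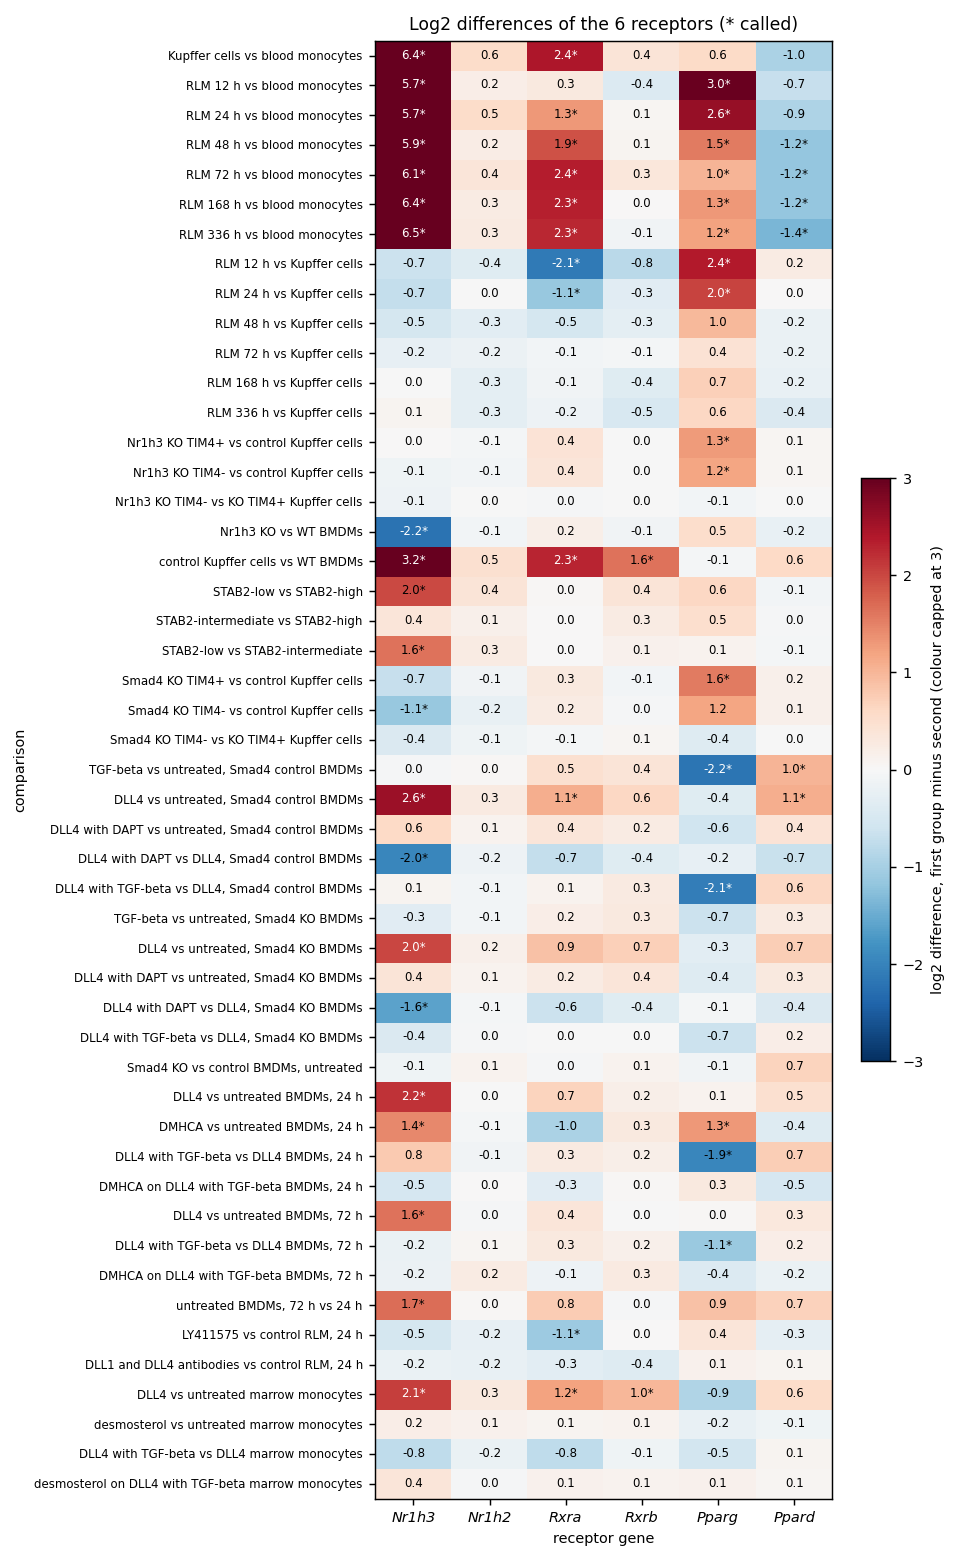
Heat map of the log2 differences (TPM + 1 scale) of the 6 receptors, in columns, for the 49 comparisons between groups, in rows, with the first-named group over the second, colours capped at 3 in either direction and asterisks on differences that were called. Colours are strongest in the columns of Nr1h3, Rxra and Pparg, and the column of Nr1h2 holds no asterisk.

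The time course addressed when monocytes entering the emptied liver take up the profile of Kupffer cells, and the 6 receptors followed different courses in it. Nr1h3 was within 2-fold of its Kupffer cell level in RLMs at 12 h. Rxra stepped up between 12 and 72 h, and Pparg was highest at 12 and 24 h and lower from 48 h on. Ppard fell against monocytes from 48 h on, and the differences of Nr1h2 and Rxrb stayed below 2-fold throughout.

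Among the LXR genes, Nr1h3 stood at 450.2, 356 and 368 TPM in Kupffer cells, against 4.03, 2.06, 5.41 and 3.77 TPM in monocytes (log2 difference 6.39 ± 0.19, limma adjusted p = 4.31e-15). Every Kupffer library was far above every monocyte library. RLM levels of Nr1h3 were 203 and 299.5 TPM at 12 h, 246, 208 and 263 TPM at 24 h, 246 and 297 TPM at 48 h, 371 and 289 TPM at 72 h, 395, 361 and 411 TPM at 168 h and 365, 448 and 418 TPM at 336 h. The difference from monocytes was already 5.73 ± 0.22 at 12 h and reached 6.46 ± 0.19 at 336 h (limma adjusted p between 4.46e-15 and 1.34e-12 at these times). When the groups are ordered by level, each overlapped with the next one, except that all stood clear of monocytes. Against Kupffer cells, Nr1h3 was lower by less than 2-fold at 12 h (-0.66 ± 0.23 with a limma adjusted p = 0.0206) and at 24 h (-0.71 ± 0.20 with a limma adjusted p = 0.00795). Nr1h2 stood at 103, 96.7 and 89.5 TPM in Kupffer cells, against 60.7, 71.7, 65.3 and 64.1 TPM in monocytes, a difference of 0.55 ± 0.08 with a limma adjusted p = 1.12e-05, below 2-fold. In RLMs it stood at 70.6 and 79.2 TPM at 12 h, 88.1, 102 and 97.2 TPM at 24 h and 79.9, 73.4 and 83.0 TPM at 336 h, the 12 h libraries overlapping with monocytes. The makeup of the LXR RNA thus changed, with Nr1h3 giving 5.56% of the summed TPM of both LXR genes in monocytes, 76.7% at 12 h, 83.8% at 336 h and 80.2% in Kupffer cells.

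The RXR genes followed another course. Rxra stood at 238, 242 and 250.4 TPM in Kupffer cells, against 49.9, 43.7, 43.8 and 40.9 TPM in monocytes (log2 difference 2.43 ± 0.09, limma adjusted p = 5.17e-14). Its RLM levels were 55.4 and 54.1 TPM at 12 h, 113, 117 and 102 TPM at 24 h, 183 and 157 TPM at 48 h, 211 and 254 TPM at 72 h, 228, 245 and 208 TPM at 168 h and 207, 232 and 216 TPM at 336 h. The libraries of monocytes, 12, 24, 48 and 72 h did not overlap between neighbouring groups, and those of 72, 168 and 336 h did. The Kupffer libraries overlapped with those of 72 and 168 h and stood above all of 336 h. At 12 h Rxra differed from monocytes by only 0.29 ± 0.10 with a limma adjusted p = 0.0158, below 2-fold, at the time when Nr1h3 had already risen. It rose against monocytes from 24 h (1.30 ± 0.09 with a limma adjusted p = 7.22e-10) and stood 2.36 ± 0.10 above them at 72 h (limma adjusted p = 1.55e-12). Against Kupffer cells Rxra was lower at 12 h (-2.13 ± 0.10 with a limma adjusted p = 1.66e-11) and at 24 h (-1.13 ± 0.09 with a limma adjusted p = 2.67e-08). Rxrb stood at 56.6, 66.3 and 64.3 TPM in Kupffer cells, against 48.4, 48.2, 48.7 and 44.1 TPM in monocytes, a difference of 0.39 ± 0.09 with a limma adjusted p = 0.00116. It was lowest at 12 h, at 35.6 and 34.6 TPM, below every other library of the time course (-0.42 ± 0.11 with a limma adjusted p = 0.00224 against monocytes; -0.81 ± 0.11 with a limma adjusted p = 8.13e-06 against Kupffer cells, both below 2-fold). The share of Rxra in the summed TPM of both RXR genes was 48.4% in monocytes, 60.9% at 12 h, 69.3% at 24 h, 79.3% at 72 h and 79.6% in Kupffer cells.

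Among the PPAR genes, Pparg was at its highest early in the time course. It stood at 46.7 and 59.9 TPM at 12 h and 52.7, 36.9 and 36.4 TPM at 24 h, then at 15.4 and 23.9 TPM at 48 h, 13.1 and 13.0 TPM at 72 h, 15.0, 16.1 and 16.6 TPM at 168 h and 12.5, 15.1 and 17.6 TPM at 336 h. Monocytes held 3.63, 4.82, 9.73 and 6.85 TPM and Kupffer cells 10.2, 10.4 and 7.60 TPM. All libraries of 12 and 24 h were above all others, and every RLM library was above every Kupffer library. Against Kupffer cells Pparg was higher at 12 h (2.38 ± 0.27 with a limma adjusted p = 9.22e-07) and 24 h (2.04 ± 0.24 with a limma adjusted p = 2.41e-06), and the difference was below 2-fold at 48 h (0.97 ± 0.27 with a limma adjusted p = 0.00668) and at 168 h (0.71 ± 0.24 with a limma adjusted p = 0.0447). Against monocytes it was higher at all 6 times, by 2.96 ± 0.26 with a limma adjusted p = 4.55e-08 at 12 h and by 1.205 ± 0.23 with a limma adjusted p = 1.47e-04 at 336 h. The call at 72 h (1.03 ± 0.26) was lost without 1 monocyte library, with 0.83 with a limma adjusted p = 0.00504 without library 8 and 0.94 with a limma adjusted p = 0.00556 without library 3. Between Kupffer cells and monocytes themselves Pparg differed by only 0.58 ± 0.23 with a limma adjusted p = 0.0290.

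Ppard ran the other way. It stood at 18.5, 18.9 and 18.1 TPM in Kupffer cells, against 38.1, 45.6, 30.3 and 34.3 TPM in monocytes, a difference of -0.95 ± 0.11 with a limma adjusted p = 6.36e-07, just under 2-fold. RLMs held 22.7 and 21.6 TPM at 12 h, 17.6, 22.2 and 16.8 TPM at 24 h, 15.9 and 15.9 TPM at 48 h, 15.3 and 16.6 TPM at 72 h, 15.1, 15.8 and 16.5 TPM at 168 h and 14.6, 12.3 and 13.7 TPM at 336 h. Every RLM library was below every monocyte library. Ppard fell against monocytes at 48, 72, 168 and 336 h, by 1.15, 1.15, 1.17 and 1.38 on the log2 scale (limma adjusted p at 336 h = 6.01e-09). In the summed TPM of both PPAR genes, Pparg made up 14.8% in monocytes, 70.4% at 12 h, 45.0% at 72 h, 52.4% at 336 h and 33.6% in Kupffer cells.

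**Figure D2:**
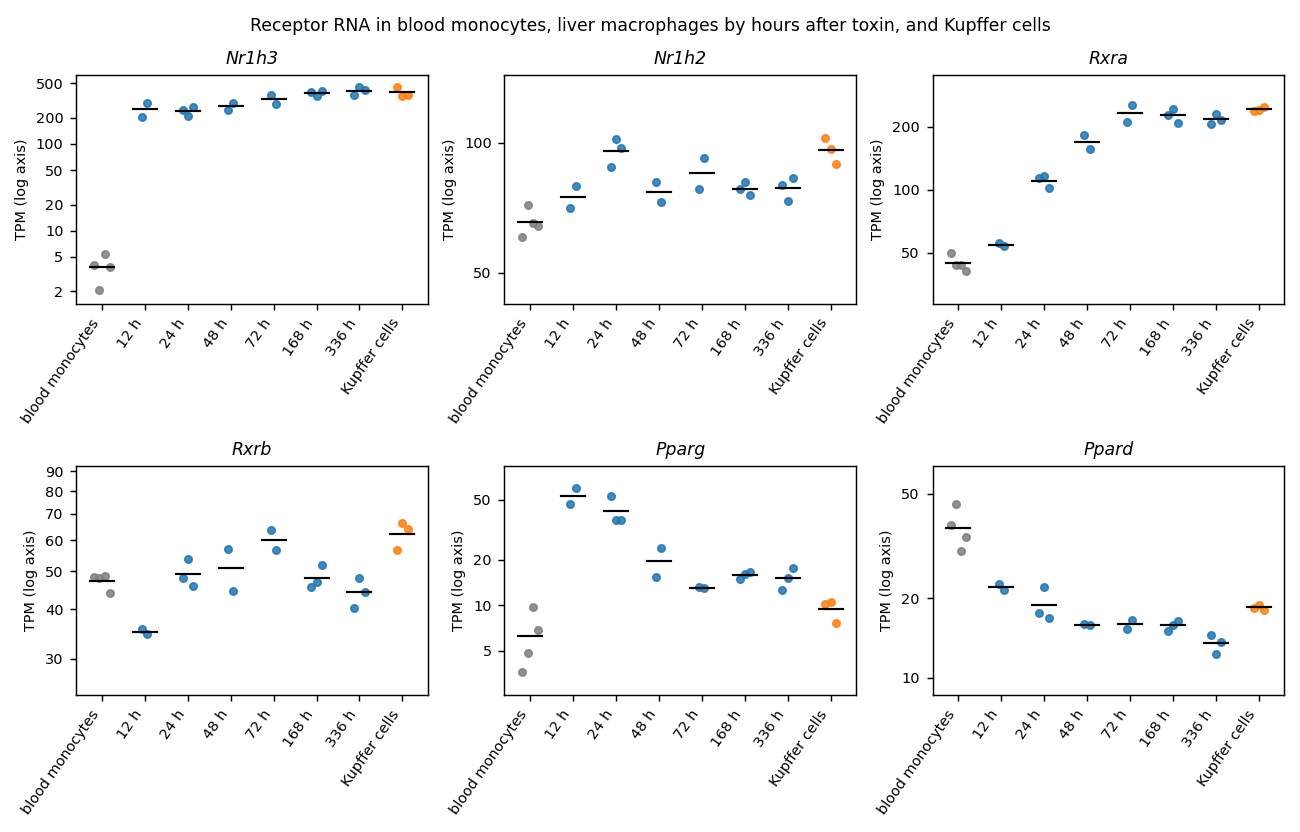
TPM of the 6 receptors (log axis) in blood monocytes, in RLMs at 12 to 336 h after toxin and in Kupffer cells, with a dot for each library and a bar at the group mean. Nr1h3 stepped up by 12 h, Rxra climbed up to 72 h, Pparg peaked at 12 and 24 h, and Nr1h2 stayed within 2-fold of its monocyte level.

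Counted over the table, 2 of the 6 receptors were called in Kupffer cells against monocytes, a share close to the 35.1% of all genes called there and so no result about the receptors as a group. Against monocytes, 2 receptors were called at 12 h (all genes 25.2%), 3 at 24 h (33.4%), and 4 each at 48 h (37.4%), 72 h (37.1%), 168 h (29.0%) and 336 h (30.8%). The shares at 12 and 24 h lie near those of all genes, and these 6 comparisons share the monocyte libraries. Against Kupffer cells, 2 were called at 12 h (all genes 23.8%) and 2 at 24 h (14.7%). At 48 h, 0 of 6 were called by limma and 0 by limma-voom, with an unadjusted limma p below 0.05 for 5, where 18.5% of all genes were called. At 72 h, 0 were called by limma and 0 by limma-voom, with an unadjusted limma p below 0.05 for 0 (all genes 10.9%). At 168 h, 0 were called by limma and 0 by limma-voom, with an unadjusted limma p below 0.05 for 3 (all genes 3.99%), and at 336 h, 0 were called by limma and 0 by limma-voom, with an unadjusted limma p below 0.05 for 4 (all genes 3.82%). The libraries of the earliest RLMs still held monocyte genes. Monocyte markers summed to 693 to 1730.4 TPM at 12 h and 379 to 560.2 TPM at 24 h, and to 32.5 to 43.0 TPM at 336 h. Kupffer markers summed to 4.00 to 4.38 TPM at 12 h, 72.7 to 113 TPM at 24 h and 5176 to 5267 TPM at 336 h. Their part in the receptor levels was not tested.

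Genes whose levels followed a receptor most closely were taken by Pearson correlation of log2(TPM + 1) over the 22 libraries of the time course, among 7014 genes with a mean of at least 10 TPM. The libraries fall into 8 groups of one experiment, so these values are descriptions and carry no p. Nr1h3 was followed by Rgl1 (r = 0.995), Acp2 (0.993) and Lgmn (0.991), the last 2 encoding enzymes of the lysosome. Acp2 is also a neighbour of Nr1h3, at 91202912 to 91214098 on the plus strand of chromosome 2. Rxra was followed by Cd5l (0.989), Fcna (0.987) and Lrp5 (0.987), and Cd5l is a secreted protein known as an LXR target in macrophages. Pparg was followed by Cd63 (0.941), Clic4 (0.936) and Efhd2 (0.925). Ppard was followed by Sbno2 (0.961), Cic (0.959) and Nfil3 (0.954). The closest genes to Nr1h2 were Slc25a1 (0.909), Nprl3 (0.874) and Nisch (0.868), and those to Rxrb were Ift46 (0.887), Atraid (0.884) and Tm2d2 (0.851).

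The genes that these receptors are known to drive were followed as lists. Of 14 LXR targets, 9 were called in Kupffer cells against monocytes (all genes 35.1%), all of them higher. The median difference was 3.54, against -0.06 over all genes. The called targets included the receptor for dying cells Mertk (log2 difference 8.35 ± 0.15), the apolipoprotein Apoc1 (7.39 ± 0.32) and the desaturase Scd1 (5.62 ± 0.35). Kupffer libraries also held hepatocyte markers, and the part of hepatocyte RNA in the levels of the targets was not tested. At 12 h, 9 of 14 were called against monocytes (all genes 25.2%), all higher. Among them were Mertk (6.01 ± 0.17), Apoe (3.27 ± 0.23), Scd1 (3.05 ± 0.40) and the cholesterol transporter Abca1 (3.00 ± 0.24). Against Kupffer cells 8 of 14 were lower at 12 h, where 23.8% of all genes were called. Of 12 PPAR targets, 8 were higher and 1 lower in Kupffer cells against monocytes (median 2.17), where 35.1% of all genes were called. The fatty acid carrier Fabp4 (3.19 ± 0.40) and the fatty acid transporter Cd36 (2.93 ± 0.43) were among the higher ones. At 12 h, 8 of 12 were called (all genes 25.2%), all higher, with Fabp4 at 4.73 ± 0.45, Fabp5 at 4.06 ± 0.40 and Cd36 at 3.98 ± 0.49. Against Kupffer cells, Fabp5 was higher by 5.80 ± 0.42 at 12 h. Fabp4 was also called there, a call lost without 1 library of 12 h (log2 difference 1.26). The remaining PPAR targets are not reported for this comparison. Whether these differences follow from the level of Pparg was not tested.

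Other partners moved both ways between Kupffer cells and monocytes. Of 7 tested RXR partner receptors, 3 were higher, among them the thyroid hormone receptor Thrb (3.43 ± 0.14), and 3 were lower, namely the retinoic acid receptors Rarg (-3.20 ± 0.17) and Rara (-2.92 ± 0.20) and Nr4a1 (-2.44 ± 0.30). Of 8 coactivators, Ppargc1b was higher (1.53 ± 0.15) and Ep300 lower (-1.09 ± 0.12), both below 2-fold after quantile normalization. Of 7 corepressors 1 was higher and 2 were lower. In this comparison 35.1% of all genes were called, so the counts of coactivators and corepressors are no result about these lists.

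The Nr1h3 deletion asked what Kupffer cells owe to LXR-alpha. Knockout Kupffer cells held more Pparg than controls, and the differences of the other 5 receptors were below 2-fold. The RNA of the deleted gene measured 391 and 422 TPM in TIM4+ and 341 and 395 TPM in TIM4- knockout Kupffer cells, against 409 and 393 TPM in controls. TPM summed over exons cannot show a deletion of some exons, so these values check neither the label nor the deletion. In BMDMs labelled Nr1h3 knockout the gene was at 8.05 and 8.81 TPM, against 41.9 and 43.3 TPM in wild-type BMDMs, and it fell (log2 difference -2.21 ± 0.08, limma adjusted p = 1.74e-05).

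Pparg stood at 24.2 and 29.7 TPM in TIM4+ and 25.0 and 25.6 TPM in TIM4- knockout cells, against 11.4 and 9.79 TPM in controls. Each knockout library was above both controls, and Pparg rose in both groups (log2 difference 1.27 ± 0.10, limma adjusted p = 9.03e-05 in TIM4+ cells; log2 difference 1.18 ± 0.10, limma adjusted p = 8.51e-05 in TIM4- cells). Both groups were set against the same controls. Rxra, the partner of both receptors, stood at 304 and 293 TPM and 296 and 286 TPM in the TIM4+ and TIM4- knockout cells, against 229 and 224 TPM in controls. It was higher by less than 2-fold (0.40 ± 0.05 with a limma adjusted p = 7.52e-04 in TIM4+ cells and 0.36 ± 0.05 with a limma adjusted p = 9.16e-04 in TIM4- cells). Nr1h2, the remaining LXR, stood at 92.4 and 77.6 TPM and 86.5 and 81.3 TPM, against 95.2 and 81.6 TPM in controls, and the groups overlapped. Ppard stood at 22.2 and 19.8 TPM and 21.0 and 20.9 TPM, against 19.7 and 20.6 TPM in controls. Pparg made up 56.2% and 54.7% of the PPAR RNA in TIM4+ and TIM4- knockout cells, against 34.4% in controls.

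Of the 6 receptors 1, Pparg, was called in the TIM4+ cells, where 2.86% of all genes were called, and again in the TIM4- cells (all genes 4.16%). Between TIM4- and TIM4+ knockout cells 0 of 6 were called by limma and 0 by limma-voom, with an unadjusted limma p below 0.05 for 0 (all genes 0.597%). In BMDMs Nr1h3 itself was the 1 receptor called (all genes 0.417%). Pparg was there at 16.2 and 16.5 TPM in knockout cells, against 11.01 and 11.1 TPM in wild-type cells, higher by 0.52 ± 0.10 with a limma adjusted p = 0.0439, which is below 2-fold. Control Kupffer cells differed from wild-type BMDMs in 3 of 6 receptors (all genes 36.5%), with Nr1h3 higher by 3.20 ± 0.08 with a limma adjusted p = 3.02e-09, Rxra by 2.28 ± 0.05 with a limma adjusted p = 1.08e-09 and Rxrb by 1.62 ± 0.08 with a limma adjusted p = 1.72e-07. These 3 calls are a share near that of all genes. Rxrb stood at 57.03 and 54.8 TPM in those Kupffer cells and 17.3 and 17.7 TPM in the BMDMs. Pparg overlapped between these cell types.

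Of 14 LXR targets 4 were called in TIM4+ knockout Kupffer cells (all genes 2.86%), all lower. Among them were the secreted protein Cd5l (log2 difference -2.76 ± 0.12) and Scd1 (-2.37 ± 0.38). In TIM4- cells 4 were called (all genes 4.16%), all lower, among them Cd5l (-4.20 ± 0.12), Apoc1 (-3.79 ± 0.36) and Scd1 (-3.08 ± 0.38). The medians over the list were -0.09 and -0.11, close to 0, and 0.10 and 0.13 over all genes. Of 11 tested PPAR targets, Cd36 (1.50 ± 0.17) and Fabp5 (1.05 ± 0.19) were higher in TIM4+ cells. The Fabp5 call was lost without control replicate 1 (0.97) and without knockout replicate 2 (0.79). In TIM4- cells the 1 PPAR target called was Cd36 (1.10 ± 0.17), a call lost without control replicate 1 (0.81) and by limma-voom (0.99). The count in TIM4- cells was 2 without control replicate 2 or TIM4- knockout replicate 1, and also with a pseudocount of 0.25 or quantile normalization. Kupffer cell markers moved with the genotype, at 6875 to 7493 TPM and 4703 to 4727 TPM in TIM4+ and TIM4- knockout cells, against 11075 to 11162 TPM in controls. Endothelial markers were at 480.9 to 488 TPM and 435 to 436 TPM, against 739 to 756 TPM in controls. Monocyte markers were at 2.56 to 2.63 TPM and 9.08 to 10.96 TPM, against 3.97 to 4.70 TPM in controls. The part of these markers, or of hepatocyte RNA, in the differences of Pparg and of the listed targets was not tested.

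The Smad4 deletion asked the same of the TGF-beta family pathway. Every Smad4 knockout Kupffer library held more Pparg and less Nr1h3 than its controls. Pparg stood at 25.8, 36.5 and 35.9 TPM in TIM4+ and 20.8 and 28.6 TPM in TIM4- knockout cells, against 12.0 and 8.75 TPM in controls. Nr1h3 stood at 203, 261 and 229.7 TPM in TIM4+ and 155 and 188 TPM in TIM4- knockout cells, against 358 and 391 TPM in controls. For both genes no knockout library overlapped a control library. Pparg rose in TIM4+ cells (log2 difference 1.57 ± 0.22, limma adjusted p = 0.0284), and its difference in TIM4- cells was 1.17 ± 0.24 with a limma adjusted p = 0.0665. Nr1h3 fell in TIM4- cells (log2 difference -1.13 ± 0.16, limma adjusted p = 0.0239), and its difference in TIM4+ cells was -0.70 ± 0.15 with a limma adjusted p = 0.0879. Each group thus had 1 of 6 receptors called, where 0.965% of all genes were called in TIM4+ and 1.62% in TIM4- cells. Between TIM4- and TIM4+ knockout cells 0 were called by limma and 0 by limma-voom, with an unadjusted limma p below 0.05 for 1 (all genes 0.0503%).

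Both calls were lost without single libraries. The difference of Pparg in TIM4+ cells was 1.77 with a limma adjusted p = 0.0953 without control AT, 1.36 with a limma adjusted p = 0.245 without control CA, 1.48 with a limma adjusted p = 0.0672 without knockout CG and 1.49 with a limma adjusted p = 0.0973 without knockout GC. That of Nr1h3 in TIM4- cells was -1.19 with a limma adjusted p = 0.105 without control AT, -1.07 with a limma adjusted p = 0.188 without control CA, -1.13 with a limma adjusted p = 0.0617 without TIM4+ knockout GC and -0.99 with a limma adjusted p = 0.150 without the TIM4- knockout library other than TT. Rxra was at 244, 252 and 255 TPM in TIM4+ and 247 and 233 TPM in TIM4- knockout cells, against 221 and 187 TPM in controls, above them in each library (0.30 ± 0.11 with a limma adjusted p = 0.305 in TIM4+ cells). Ppard stood at 23.2, 23.8 and 24.4 TPM and 25.2 and 21.98 TPM, against 21.4 and 20.9 TPM in controls (0.16 ± 0.11 with a limma adjusted p = 0.580 in TIM4+ cells). Rxrb overlapped with the controls in both groups, and Nr1h2 lay below them in 4 of 5 knockout libraries (-0.21 ± 0.12 with a limma adjusted p = 0.466 in TIM4- cells). Of the LXR targets Apoc1 was the 1 called in TIM4- cells (-2.40 ± 0.24), a call lost without control AT (adjusted p = 0.0566 by limma), control CA (0.102) or the TIM4- knockout library other than TT (0.0607). Kupffer cell markers summed to 5153 to 6958 TPM and 2042 to 2571 TPM in TIM4+ and TIM4- knockout cells, against 11346 to 11737 TPM in controls. Monocyte markers were at 2.37 to 4.57 TPM and 16.8 to 27.5 TPM, against 2.31 to 3.88 TPM in controls. The part of these markers, or of hepatocyte RNA, in the levels of the receptors and of Apoc1 was not tested.

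**Figure D3:**
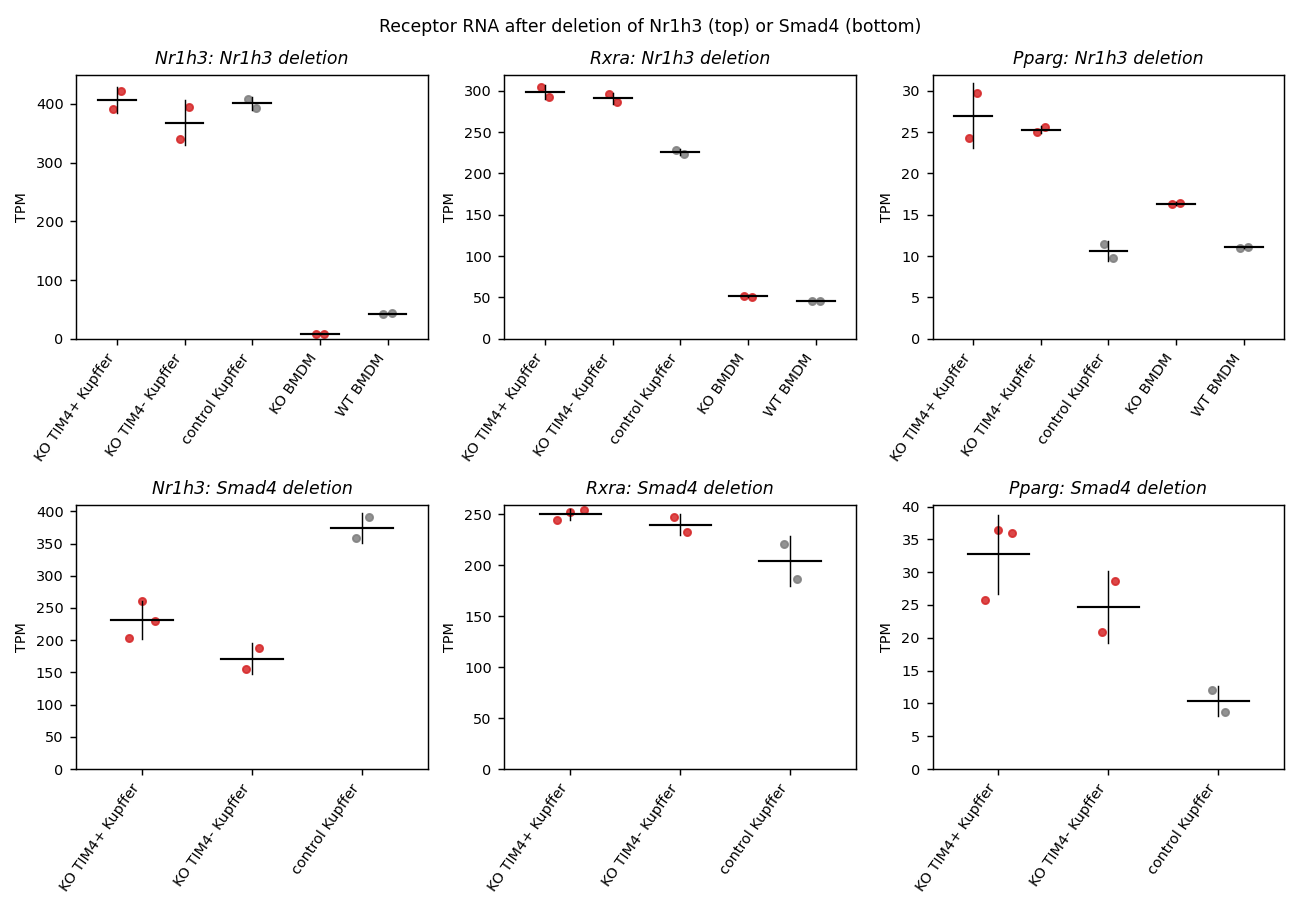
TPM of Nr1h3, Rxra and Pparg in Nr1h3 knockout Kupffer cells and BMDMs (top) and Smad4 knockout Kupffer cells (bottom), in red, left of their controls, in gray, with a dot for each library, a bar at the mean and a line of 1 SD to either side. Pparg lies above its controls in every knockout library of both genotypes, and Nr1h3 lies below its controls in every Smad4 knockout library.

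In the liver cells sorted on STAB2, an endothelial receptor, the level of Nr1h3 was low and highest in the STAB2-low cells. It stood at 11.9 and 11.2 TPM in STAB2-low cells, against 1.29 and 3.38 TPM in STAB2-high cells, and at 2.19 and 4.17 TPM in STAB2-intermediate cells. Both STAB2-low libraries were above the other 4. Nr1h3 rose against STAB2-high cells (log2 difference 1.98 ± 0.39, limma adjusted p = 0.0102) and against STAB2-intermediate cells (log2 difference 1.63 ± 0.39, limma adjusted p = 0.0271). Leaving out single libraries ended both calls. Against STAB2-high cells the difference was 1.95 with a limma adjusted p = 0.0592 without STAB2-low 210 and 2.02 with a limma adjusted p = 0.0599 without the other STAB2-low library. Against STAB2-intermediate cells it was 1.59 with a limma adjusted p = 0.121 without STAB2-low 210, 1.67 with a limma adjusted p = 0.125 without the other STAB2-low library and 1.28 with a limma adjusted p = 0.141 without STAB2-intermediate 210. Nr1h2 was at 96.8 and 95.6 TPM in STAB2-low cells, against 79.9 and 66.4 TPM in STAB2-high cells, higher by 0.40 ± 0.11 with a limma adjusted p = 0.0427, below 2-fold. Pparg overlapped between the gates, at 6.38 and 11.8 TPM in STAB2-low cells, 5.41 and 11.5 TPM in intermediate and 3.78 and 7.29 TPM in STAB2-high cells. The library numbered 210 held less of it than the other one in each gate. Rxra also overlapped between the gates.

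Of the 6 receptors 1, Nr1h3, was called in STAB2-low against STAB2-high cells (all genes 13.6%) and in STAB2-low against intermediate cells (10.4%), shares near those of all genes. Between intermediate and high cells 0 were called by limma and 0 by limma-voom, with an unadjusted limma p below 0.05 for 0 (all genes 0.00946%). The 4 macrophage markers summed to 117 to 119 TPM in STAB2-low cells, against 308 to 326 TPM in STAB2-high cells. Kupffer cell markers summed to 27.3 to 34.1 TPM, against 35.0 to 56.7 TPM. Endothelial markers summed to 5318 to 6023 TPM, against 10668 to 11778 TPM. Intermediate cells held 272 to 283 TPM of the macrophage markers. Mertk, one of these markers, is also in the list of LXR targets. The part of the markers in the receptor levels was not tested.

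In BMDMs of the Smad4 experiment, Nr1h3 rose with DLL4 in both genotypes and fell again when DAPT was added. Rxra and Ppard rose with DLL4 in controls. Both were higher with DLL4 in knockout cells and lower with DAPT on DLL4 in controls, without a call. Pparg fell with TGF-beta in control cells, with or without DLL4, and the test of the difference between the genotypes called it in both settings.

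Nr1h3 stood at 60.1 and 66.3 TPM in control BMDMs with DLL4, against 10.8 and 8.98 TPM untreated (log2 difference 2.56 ± 0.15, limma adjusted p = 1.38e-08). In knockout BMDMs it stood at 39.5 and 39.1 TPM with DLL4, against 9.45 and 8.55 TPM untreated (log2 difference 2.01 ± 0.15, limma adjusted p = 2.41e-07). The difference between the genotypes in this response was -0.55 ± 0.22 with a limma adjusted p = 0.489. With DAPT beside DLL4, Nr1h3 was at 14.8 and 16.3 TPM in control cells, a fall of 1.96 on the log2 scale against DLL4 alone (limma adjusted p = 4.32e-07), and at 11.1 and 13.3 TPM in knockout cells (-1.62 ± 0.15 with a limma adjusted p = 3.31e-06). In control cells a difference from untreated cells was left (0.61 ± 0.15 with a limma adjusted p = 0.0353), below 2-fold. TGF-beta on top of DLL4 left Nr1h3 at 69.2 and 65.2 TPM in control cells, against 60.1 and 66.3 TPM with DLL4 alone, and the groups overlapped. Through these changes Nr1h3 made up 43.5% of the LXR RNA of control cells with DLL4 and 12.7% without it.

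Rxra stood at 78.0 and 78.9 TPM in control cells with DLL4, against 36.0 and 37.0 TPM untreated (log2 difference 1.08 ± 0.10, limma adjusted p = 1.04e-06). With DAPT beside DLL4 its mean there was 47.7 TPM, against 78.5 TPM with DLL4 alone, a difference that was not called. In knockout cells its levels were 69.0 and 64.4 TPM with DLL4, against 36.6 and 34.5 TPM untreated, a difference of 0.89 ± 0.10 with a limma adjusted p = 8.11e-06, below 2-fold. Rxrb differed by 0.61 ± 0.10 with a limma adjusted p = 2.10e-04 and Nr1h2 by 0.28 ± 0.05 with a limma adjusted p = 0.00112 with DLL4 in control cells, both below 2-fold.

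Pparg stood at 7.38 and 6.05 TPM in control BMDMs with TGF-beta, against 34.4 and 33.4 TPM untreated (log2 difference -2.18 ± 0.09, limma adjusted p = 2.90e-10). On DLL4 it stood at 5.29 and 5.62 TPM with TGF-beta, against 26.0 and 26.2 TPM with DLL4 alone (log2 difference -2.07 ± 0.09, limma adjusted p = 5.62e-10). In Smad4 knockout cells the same additions gave 18.2 and 21.3 TPM with TGF-beta, against 31.7 and 31.5 TPM untreated (-0.65 ± 0.09 with a limma adjusted p = 4.42e-04). They gave 16.1 and 15.2 TPM with DLL4 and TGF-beta, against 23.9 and 26.5 TPM with DLL4 (-0.65 ± 0.09 with a limma adjusted p = 4.15e-04). The response of Pparg to TGF-beta differed between knockout and control cells, by 1.53 ± 0.13 with a limma adjusted p = 5.28e-06 without DLL4 and by 1.42 ± 0.13 with a limma adjusted p = 8.74e-06 on DLL4. In knockout cells Pparg was still lower with TGF-beta, by less than 2-fold.

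Ppard moved against Pparg. With TGF-beta it stood at 23.3 and 27.7 TPM in control cells, against 12.7 and 11.2 TPM untreated (log2 difference 1.03 ± 0.09, limma adjusted p = 4.28e-07). This call was lost without untreated replicate 2 (0.95 with a limma adjusted p = 1.75e-05) and without TGF-beta replicate 2 (0.91 with a limma adjusted p = 2.96e-06). With DLL4 it stood at 27.1 and 25.9 TPM (log2 difference 1.09 ± 0.09, limma adjusted p = 2.99e-07), and with both agents at 40.9 and 41.8 TPM, the highest level of the table. With DAPT beside DLL4 the mean of Ppard in control cells was 16.3 TPM, against 26.5 TPM with DLL4, without a call. In knockout cells its mean was 33.3 TPM with DLL4, against 19.7 TPM untreated, also without a call. Untreated knockout cells held 19.8 and 19.5 TPM of Ppard, more than untreated controls by 0.68 ± 0.09 with a limma adjusted p = 1.30e-04, below 2-fold. The response of Ppard to TGF-beta differed between the genotypes by -0.76 ± 0.12 with a limma adjusted p = 0.00137 without DLL4 and by -0.42 ± 0.12 with a limma adjusted p = 0.0310 on DLL4, both below 2-fold. Pparg made up 21.0% of the PPAR RNA in control cells with TGF-beta and 74.0% untreated. In knockout cells it made up 45.1% with TGF-beta and 61.6% untreated.

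**Figure D4:**
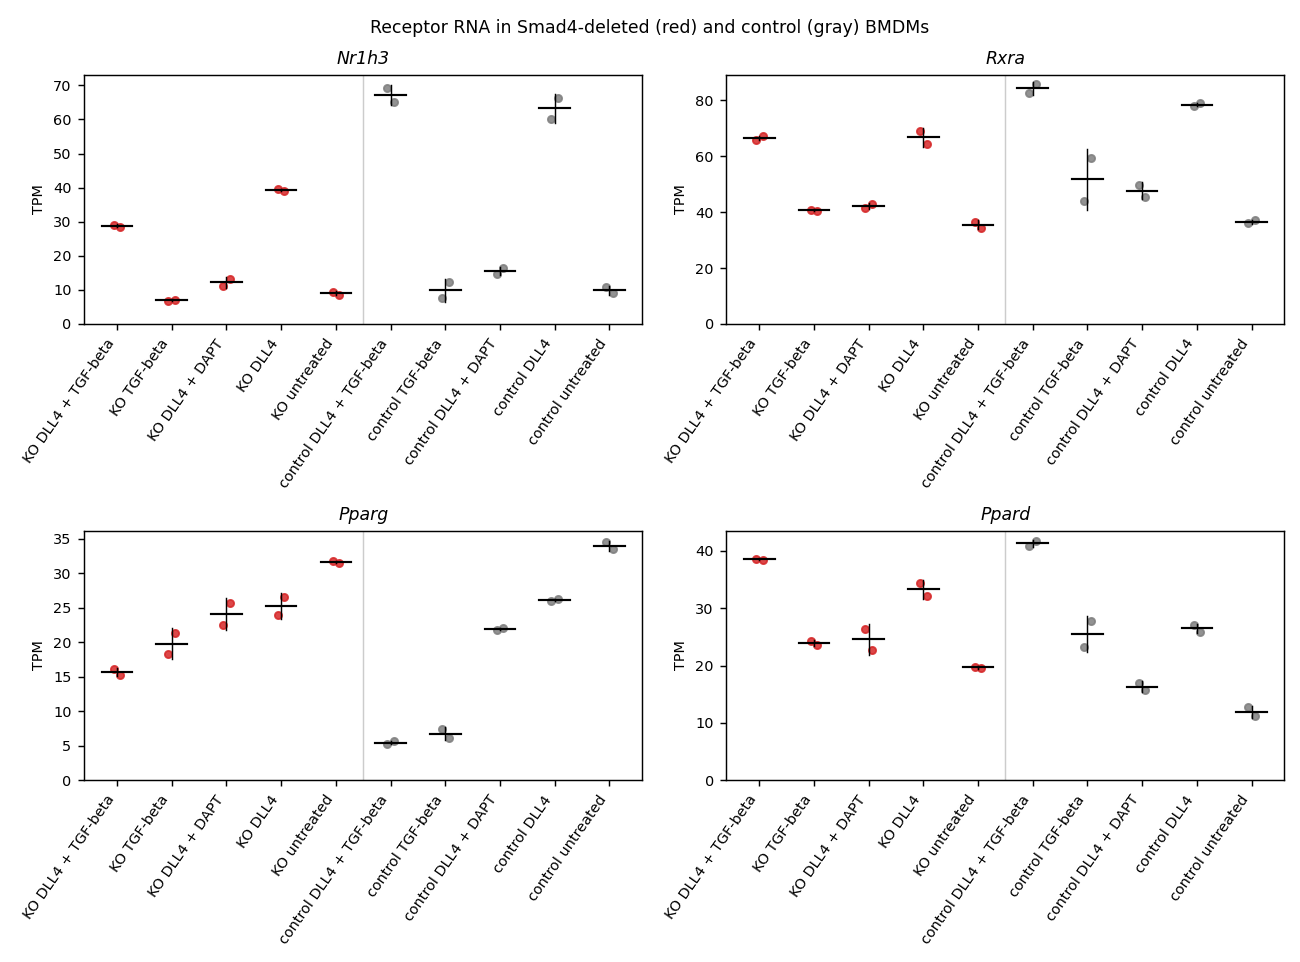
TPM of Nr1h3, Rxra, Pparg and Ppard in Smad4 knockout (red) and control (gray) BMDMs under the 5 culture conditions, with a dot for each library, a bar at the mean and a line of 1 SD to either side. Nr1h3 is high with DLL4 and low with DLL4 and DAPT, and Pparg is lowest in control cells with TGF-beta, alone or on DLL4.

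In control BMDMs, 2 of 6 receptors were called with TGF-beta (all genes 4.17%), 3 with DLL4 (4.06%), 1 with DAPT on DLL4 (2.09%) and 1 with TGF-beta on DLL4 (6.66%). With DLL4 and DAPT against untreated cells 0 were called by limma and 0 by limma-voom, with an unadjusted limma p below 0.05 for 5 (all genes 0.312%). In knockout BMDMs, 1 was called with DLL4 (all genes 3.39%) and 1 with DAPT on DLL4 (1.82%). There 0 were called with TGF-beta by limma and 0 by limma-voom, with an unadjusted limma p below 0.05 for 4 (all genes 0.545%), 0 with DLL4 and DAPT against untreated cells by limma and 0 by limma-voom, with an unadjusted limma p below 0.05 for 5 (0.166%), and 0 with TGF-beta on DLL4 by limma and 0 by limma-voom, with an unadjusted limma p below 0.05 for 3 (0.799%). Between untreated knockout and control cells 0 were called by limma and 0 by limma-voom, with an unadjusted limma p below 0.05 for 1 (1.13%). In the tests of a difference between genotypes, 1 receptor was called for TGF-beta (all genes 1.2%) and 1 for TGF-beta on DLL4 (2.23%), and for DLL4 0 were called by limma and 0 by limma-voom, with an unadjusted limma p below 0.05 for 2 (all genes 0.0%). Comparisons within a genotype share their untreated or DLL4 libraries.

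Of 12 tested LXR targets, 4 were called with DLL4 in control cells (all genes 4.06%), all higher. They were the cholesterol transporters Abcg1 (log2 difference 1.82 ± 0.26) and Abca1 (1.30 ± 0.18), Mertk (1.44 ± 0.16) and Mylip, which lowers the LDL receptor (1.32 ± 0.13). Of 10 tested PPAR targets, 2 were called with TGF-beta in control cells (all genes 4.17%), both lower, Fabp4 (-1.58 ± 0.26) and Cd36 (-1.15 ± 0.06). Both were also lower with TGF-beta on DLL4, Fabp4 with -1.66 ± 0.26 and Cd36 with -1.09 ± 0.06, the call of Cd36 being lost by limma-voom, just under 2-fold. Among the sterol enzymes Cyp27a1, which makes 27-hydroxycholesterol, was higher with DLL4 (1.76 ± 0.20). Neutrophil markers were present in these cultures, at 3930.2 to 5067 TPM in control cells with TGF-beta and 3483 to 3593 TPM in untreated controls, and at 1930.2 to 2055 TPM in untreated knockout cells. Their part in the receptor levels was not tested.

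C57BL/6J BMDMs were given DLL4 and TGF-beta again and, in addition, the LXR ligand DMHCA. With DMHCA alone Nr1h3 and Pparg rose. Rxra was lower by just under 2-fold in limma and was called lower by limma-voom. Nr1h3 stood at 12.8 and 12.8 TPM with DMHCA for 24 h, against 3.47 and 4.73 TPM untreated (log2 difference 1.44 ± 0.10, limma adjusted p = 8.93e-08). Pparg stood at 38.5 and 35.3 TPM with DMHCA, against 14.3 and 14.7 TPM untreated (log2 difference 1.29 ± 0.10, limma adjusted p = 3.18e-07), its highest level in this table. Rxra stood at 13.8 and 12.8 TPM with DMHCA, against 26.7 and 26.9 TPM untreated, a difference of -0.96 ± 0.07 with a limma adjusted p = 1.10e-07, its lowest level in this table. Ppard was lower (-0.40 ± 0.09 with a limma adjusted p = 0.00197) and Rxrb higher (0.30 ± 0.10 with a limma adjusted p = 0.0220), both by less than 2-fold. Rxra gave 29.4% of the RXR RNA with DMHCA and 51.0% untreated, and Pparg gave 77.7% of the PPAR RNA with DMHCA and 50.5% untreated. Monocyte markers were at 33.6 to 36.0 TPM with DMHCA, against 220.0 to 231 TPM untreated, and neutrophil markers at 238 to 246 TPM, against 1279.6 to 1805 TPM. Their part in these differences was not tested.

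On top of DLL4 and TGF-beta, DMHCA left each of the 6 receptors within 2-fold of its level without DMHCA at either time. Nr1h3 stood at 25.5 and 27.0 TPM with all 3 agents, against 34.9 and 40.7 TPM with DLL4 and TGF-beta (-0.50 ± 0.10 with a limma adjusted p = 0.00270), lower in both libraries by less than 2-fold. Pparg stood at 4.43 and 4.22 TPM with all 3 agents, against 3.66 and 3.03 TPM with DLL4 and TGF-beta (0.30 ± 0.10 with a limma adjusted p = 0.0557). Rxra stood at 43.6 and 38.8 TPM with all 3 agents, against 55.5 and 49.6 TPM with DLL4 and TGF-beta (-0.34 ± 0.07 with a limma adjusted p = 0.00255), lower by less than 2-fold. At 72 h Pparg stood at 8.49 and 9.85 TPM with all 3 agents, against 13.6 and 11.4 TPM with DLL4 and TGF-beta (-0.40 ± 0.10 with a limma adjusted p = 0.00662), where its level with DMHCA was the lower one. At 24 h the response to DMHCA on DLL4 and TGF-beta differed from that to DMHCA alone by -1.95 ± 0.14 with a limma adjusted p = 3.62e-07 for Nr1h3, by -0.99 ± 0.14 with a limma adjusted p = 1.34e-04 for Pparg and by 0.61 ± 0.09 with a limma adjusted p = 2.50e-04 for Rxra. Of 14 LXR targets 8 were higher and 2 lower with DMHCA alone, where 5.43% of all genes were called. Log2 differences were 4.66 ± 0.13 for Scd1, 4.59 ± 0.11 for Abca1 and 4.23 ± 0.05 for Abcg1. On DLL4 and TGF-beta 9 of 14 were called at 24 h (all genes 1.23%) and 9 at 72 h (5.21%), all higher (medians 1.29 and 1.35).

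With DLL4 alone Nr1h3 rose at both times. It stood at 21.1 and 22.1 TPM with DLL4 at 24 h, against 3.47 and 4.73 TPM untreated (log2 difference 2.16 ± 0.10, limma adjusted p = 2.99e-09). At 72 h it stood at 48.1 and 49.1 TPM with DLL4, against 15.2 and 15.1 TPM untreated (log2 difference 1.62 ± 0.10, limma adjusted p = 9.74e-08). The untreated level of Nr1h3 was itself higher at 72 h than at 24 h (1.67 ± 0.10 with a limma adjusted p = 6.43e-09), where neutrophil markers summed to 2944 to 3056 TPM at 72 h and 1279.6 to 1805 TPM at 24 h, and the response to DLL4 differed between 72 and 24 h by -0.54 ± 0.14 with a limma adjusted p = 0.0232. Rxra was higher with DLL4 by 0.67 ± 0.07 with a limma adjusted p = 6.12e-06 at 24 h and 0.36 ± 0.07 with a limma adjusted p = 0.00221 at 72 h, both below 2-fold. Pparg stood at 15.3 and 16.2 TPM with DLL4 at 24 h and 14.3 and 14.7 TPM untreated (0.11 ± 0.10 with a limma adjusted p = 0.439).

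With TGF-beta on DLL4 Pparg fell at both times. At 24 h it stood at 3.66 and 3.03 TPM with TGF-beta on DLL4, against 15.3 and 16.2 TPM with DLL4 alone (log2 difference -1.95 ± 0.10, limma adjusted p = 6.80e-09). At 72 h it stood at 13.6 and 11.4 TPM, against 29.1 and 27.4 TPM (log2 difference -1.12 ± 0.10, limma adjusted p = 1.30e-06). Ppard was at 35.4 and 33.2 TPM with TGF-beta on DLL4 at 24 h, against 20.7 and 19.7 TPM with DLL4, higher by 0.73 ± 0.09 with a limma adjusted p = 1.79e-05, below 2-fold. Nr1h3 was at 34.9 and 40.7 TPM with TGF-beta on DLL4 at 24 h, against 21.1 and 22.1 TPM with DLL4 (0.78 ± 0.10 with a limma adjusted p = 3.58e-05), and at 72 h at 42.6 and 41.5 TPM, against 48.1 and 49.1 TPM (-0.21 ± 0.10 with a limma adjusted p = 0.114).

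Of the 6 receptors, 1 was called in C57BL/6J BMDMs with DLL4 at 24 h (all genes 2.75%) and at 72 h (1.73%). DMHCA alone gave 2 calls by limma (all genes 5.43%) and 3 by limma-voom. TGF-beta on DLL4 gave 1 call at 24 h (3.8%) and 1 at 72 h (5.65%). With DMHCA on DLL4 and TGF-beta 0 were called at 24 h by limma and 0 by limma-voom, with an unadjusted limma p below 0.05 for 4 (all genes 1.23%), and 0 at 72 h by limma and 0 by limma-voom, with an unadjusted limma p below 0.05 for 5 (5.21%). Between untreated cells of 72 and 24 h 1 was called by limma, a share near the 13.8% of all genes. By limma-voom 2 were called there, with Pparg added, at means of 27.5 TPM at 72 h and 14.5 TPM at 24 h. The 2 tests of a difference in response called 1 receptor for DMHCA (all genes 6.55%) and 0 for DLL4 at 72 against 24 h by limma and 0 by limma-voom, with an unadjusted limma p below 0.05 for 2 (1.67%).

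Notch blockade in vivo asked whether RLMs need Notch signals, and Rxra was the receptor called in it. In RLMs 24 h after toxin, Rxra stood at 57.5, 54.8 and 47.1 TPM in mice given LY411575, against 113 and 113 TPM in their controls (log2 difference -1.08 ± 0.08, limma adjusted p = 2.25e-06). All treated libraries were below both controls. The call was lost without treated replicate 3, where the difference was -0.996, just under 2-fold. With antibodies to DLL1 and DLL4 Rxra stood at 79.0, 81.7, 80.4 and 77.0 TPM, against 99.2 and 101 TPM in controls (-0.33 ± 0.07 with a limma adjusted p = 0.0163), below them in 4 of 4 libraries and by less than 2-fold. The responses to LY411575 and to the antibodies differed by -0.75 ± 0.11 with a limma adjusted p = 0.00116. By the column names the former libraries are female and the latter male, so agent, sex and experiment cannot be told apart in this difference.

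Nr1h3 stood at 169, 171 and 168 TPM with LY411575, against 251 and 239 TPM in controls (-0.53 ± 0.10 with a limma adjusted p = 0.00191), without overlap and below 2-fold. With the antibodies it stood at 134, 160.1, 155 and 147 TPM, against 150.5 and 192 TPM in controls, with overlap (-0.19 ± 0.09 with a limma adjusted p = 0.217). Nr1h2 was lower with either treatment by less than 2-fold (-0.25 ± 0.06 with a limma adjusted p = 0.0143 with LY411575 and -0.23 ± 0.06 with a limma adjusted p = 0.0324 with antibodies). Pparg stood at 52.9, 56.7 and 56.6 TPM with LY411575, against 42.3 and 42.7 TPM in controls (0.37 ± 0.11 with a limma adjusted p = 0.0247), and at 33.4, 46.0, 40.7 and 37.7 TPM with the antibodies, against 35.7 and 36.3 TPM (0.12 ± 0.10 with a limma adjusted p = 0.510). Rxra gave 61.2% of the RXR RNA with LY411575 and 77.3% in controls.

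Of the 6 receptors 1 was called with LY411575 (all genes 6.38%), 0 with the antibodies by limma and 0 by limma-voom, with an unadjusted limma p below 0.05 for 3 (all genes 2.07%), and 0 in the test of the difference between them by limma and 0 by limma-voom, with an unadjusted limma p below 0.05 for 3 (all genes 5.38%). Of 14 LXR targets 4 were called with LY411575, all lower, Cd5l (log2 difference -3.46 ± 0.21), the phospholipid transfer protein Pltp (-1.82 ± 0.08), Apoe (-1.57 ± 0.10) and Fasn (-1.24 ± 0.16). Of 11 PPAR targets 3 were called, all higher, Cd36 (2.89 ± 0.12), Fabp4 (2.08 ± 0.27) and the lipid droplet protein Plin2 (1.43 ± 0.07). Monocyte markers were at 1636 to 1744 TPM with LY411575, against 949.9 to 962 TPM in controls, and Kupffer cell markers at 17.8 to 19.3 TPM, against 58.6 to 58.9 TPM. Hepatocyte markers were at 709.6 to 731 TPM, against 365 to 372 TPM. With the antibodies, hepatocyte markers were at 419 to 1562 TPM, against 1649 to 3647 TPM. The part of these markers in the levels of the receptors and targets was not tested.

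**Figure D5:**
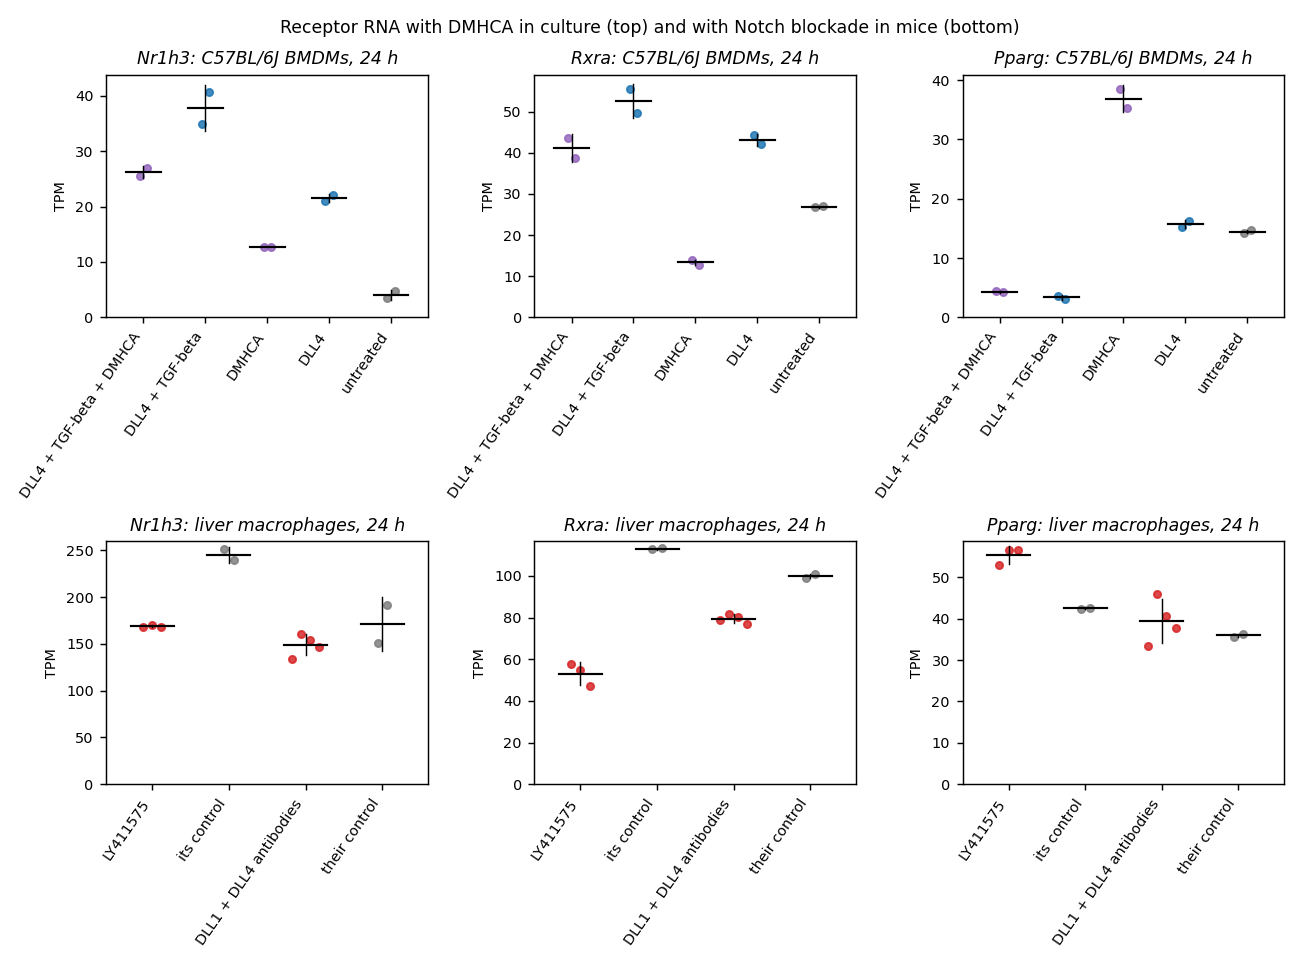
TPM of Nr1h3, Rxra and Pparg in C57BL/6J BMDMs at 24 h with DMHCA, DLL4 and TGF-beta in combination or untreated (top) and in RLMs under Notch blockade beside their controls (bottom), with a dot for each library, a bar at the mean and a line of 1 SD to either side. Rxra is lower with DMHCA alone than untreated and lower with LY411575 than in controls, and Nr1h3 and Pparg are higher with DMHCA alone than untreated.

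In bone marrow monocytes Nr1h3, Rxra and Rxrb rose with DLL4. Nr1h3 stood at 48.0 and 53.5 TPM with DLL4 for 48 h, against 11.2 and 11.6 TPM untreated (log2 difference 2.06 ± 0.08, limma adjusted p = 7.72e-09). Rxra stood at 102 and 108 TPM, against 46.7 and 42.5 TPM untreated (log2 difference 1.22 ± 0.05, limma adjusted p = 2.71e-08). Rxrb stood at 59.2 and 54.8 TPM, against 27.9 and 28.0 TPM untreated (log2 difference 1.00 ± 0.06, limma adjusted p = 1.94e-07). No treated library overlapped an untreated one for any of the 3. The Rxrb call lay at the 2-fold limit and was lost without untreated replicate 1 (0.999) and without DLL4 replicate 1 (0.946). Pparg went the other way, at 16.7 and 14.8 TPM with DLL4, against 29.8 and 31.1 TPM untreated, lower by just under 2-fold (-0.91 ± 0.08 with a limma adjusted p = 3.98e-06). Ppard was higher by 0.56 ± 0.06 with a limma adjusted p = 1.26e-05 and Nr1h2 by 0.29 ± 0.05 with a limma adjusted p = 3.98e-04, both below 2-fold. Nr1h3 made up 38.4% of the LXR RNA with DLL4 and 14.6% untreated, and Pparg 28.8% of the PPAR RNA with DLL4 and 53.8% untreated.

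With TGF-beta on DLL4 several receptors were lower here. Nr1h3 stood at 29.7 and 29.3 TPM with TGF-beta on DLL4, against 48.0 and 53.5 TPM with DLL4 (-0.76 ± 0.08 with a limma adjusted p = 2.48e-05). Rxra stood at 62.4 and 61.3 TPM, against 102 and 108 TPM with DLL4 (-0.75 ± 0.05 with a limma adjusted p = 2.15e-06). Pparg stood at 10.1 and 10.9 TPM, against 16.7 and 14.8 TPM with DLL4 (-0.55 ± 0.08 with a limma adjusted p = 3.04e-04). All 3 were lower without overlap and by less than 2-fold.

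With desmosterol, a natural LXR ligand, the differences of the receptors were small. Nr1h3 stood at 12.3 and 14.1 TPM with desmosterol, against 11.2 and 11.6 TPM untreated (0.19 ± 0.08 with a limma adjusted p = 0.117). Pparg stood at 27.2 and 24.6 TPM, against 29.8 and 31.1 TPM untreated (-0.23 ± 0.08 with a limma adjusted p = 0.0848). On DLL4 and TGF-beta, Nr1h3 was at 37.3 and 39.9 TPM with desmosterol, against 29.7 and 29.3 TPM without it, higher by 0.37 ± 0.08 with a limma adjusted p = 0.0206, below 2-fold. Of 13 tested LXR targets 4 were called with desmosterol alone (all genes 0.244%), all higher. They were Scd1 (log2 difference 2.78 ± 0.11), Abca1 (2.69 ± 0.07), Abcg1 (1.90 ± 0.05) and Scd2 (1.78 ± 0.05). On DLL4 and TGF-beta 6 of 13 were called (all genes 0.205%), all higher.

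Of the 6 receptors, 3 were called with DLL4 in these cells, where 19.5% of all genes were called. With desmosterol 0 were called by limma and 0 by limma-voom, with an unadjusted limma p below 0.05 for 4 (all genes 0.244%). With TGF-beta on DLL4 0 were called by limma and 0 by limma-voom, with an unadjusted limma p below 0.05 for 4 (all genes 8.81%), and with desmosterol on DLL4 and TGF-beta 0 were called by limma and 0 by limma-voom, with an unadjusted limma p below 0.05 for 2 (all genes 0.205%). In the test of whether the response to desmosterol differed on DLL4 and TGF-beta, 0 were called by limma and 0 by limma-voom, with an unadjusted limma p below 0.05 for 3 (all genes 0.166%). Of 10 tested PPAR targets 4 were called with DLL4, all lower, Cd36 (log2 difference -3.67 ± 0.04), Fabp4 (-2.30 ± 0.13), Fabp5 (-2.29 ± 0.06) and Plin2 (-1.47 ± 0.04). Of 13 tested LXR targets 3 were higher and 4 lower. Of 5 tested RXR partners 3 were called, all higher, the retinoic acid receptor Rara (1.62 ± 0.06), Nr4a1 (1.57 ± 0.14) and Vdr (1.11 ± 0.12). Cyp27a1 was higher with DLL4 (2.82 ± 0.06). Monocyte markers were at 78.6 to 80.8 TPM with DLL4, against 291 to 310.3 TPM untreated, and endothelial markers at 82.0 to 83.0 TPM, against 3.18 to 3.21 TPM. Their part in the receptor levels was not tested.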

How the data were processed

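Poly(A) RNA was sequenced by the authors in 104 libraries, which they deposited as TPM in 8 tables. Reads were aligned with STAR and counted with HOMER on mm10, per the submitters' processing notes, and summed over exons for 1 condensed transcript per gene, per the file headers. Versions were not given in any source used. The libraries keep strand, per the labels' protocols, and no strand option was seen in the header. TPM values up to 20 reads were whole multiples of 1 read within 0.1 read for at least 99.468% of values, which gave recovered reads (7830287 to 27776728 per library). No pair of replicate libraries was identical (0 of 69).

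Groups followed titles and labels. Each table had 1 limma model (limma 3.58.1, R 4.3.3) on log2(TPM + 1) with a mean per group and a variance trend, for genes that reached 4 TPM in no fewer than 2 libraries, and p-values were Benjamini-Hochberg adjusted over all genes tested, also for 7 tests of a difference in response. Alternatives were a pseudocount of 0.25, no filter, quantile normalization, limma-voom on recovered reads, a replicate block, no limit on size, and leaving out each library. Tables and figures were made with Python 3.11.15, pandas 2.3.3, numpy 2.4.6 and matplotlib 3.10.9. Depth limits the precision of Nr1h3 where it stood at a few TPM.

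The receptors and 16 gene lists (LXR targets, PPAR targets, RXR partners, coactivators, corepressors, sterol ligand enzymes, other receptors of the families and cell type markers) were chosen with earlier results of these data known. The counts of the sterol ligand enzymes are not reported here. Named were the 6 receptors, up to 4 called genes with the largest differences per list and comparison, and the 3 genes most alike to each receptor, without unnamed transcripts. Promoters came from RefSeq (GRCm38.p6), which held 11 windows for the 6 receptors.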

Additional observations from a re-analysis of the deposited data

Results flagged for a closer look

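In blood monocytes, the Rxrb level of the library titled as a pool, 44.1 TPM, stood farther from the other 3 (48.2, 48.4 and 48.7 TPM) than the spread of a group of 4 usually allows. Such a gap arises by chance in about 1 in 20 groups, and 12 such sets were examined, the 6 receptors in each of 2 groups of 4 libraries.

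The response to an agent differed between groups for 10 receptor values, each by limma's test of the difference with a Benjamini-Hochberg adjusted p. Between Smad4 knockout and control BMDMs the response to TGF-beta differed by 1.53 ± 0.13 with a limma adjusted p = 5.28e-06 for Pparg and by -0.76 ± 0.12 with a limma adjusted p = 0.00137 for Ppard, and on DLL4 by 1.42 ± 0.13 with a limma adjusted p = 8.74e-06 for Pparg and -0.42 ± 0.12 with a limma adjusted p = 0.0310 for Ppard. Between DMHCA on DLL4 with TGF-beta and DMHCA alone it differed by -1.95 ± 0.14 with a limma adjusted p = 3.62e-07 for Nr1h3, by -0.99 ± 0.14 with a limma adjusted p = 1.34e-04 for Pparg and by 0.61 ± 0.09 with a limma adjusted p = 2.50e-04 for Rxra. Between 72 and 24 h the response to DLL4 differed by -0.54 ± 0.14 with a limma adjusted p = 0.0232 for Nr1h3 and by -0.31 ± 0.09 with a limma adjusted p = 0.0493 for Rxra. Between LY411575 and the antibodies it differed by -0.75 ± 0.11 with a limma adjusted p = 0.00116 for Rxra, where agent, sex and experiment cannot be told apart.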

How the results depend on the processing

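Of 60 receptor differences that were called, 52 kept their call under every alternative tried, 8 lost it under at least 1, and 0 changed direction. Another 102 receptor differences had a limma adjusted p below 0.05 but were below 2-fold. Of these, 3 gained a call with quantile normalization, 2 by limma-voom, 1 with a pseudocount of 0.25 and 5 without 1 library. In C57BL/6J BMDMs the count was 10 with quantile normalization and 9 by limma-voom, against 7. Without a limit on size the counts of receptor calls were 56 in the time course, 11 for the Nr1h3 deletion, 36 in Smad4 BMDMs, 26 in C57BL/6J BMDMs, 7 under Notch blockade and 11 in marrow monocytes, against 27, 6, 9, 7, 1 and 3 with it, since most receptor differences were below 2-fold. Without the filter on low values the STAB2 sort gave 1 call and Smad4 knockout Kupffer cells 0, against 2 each, with more genes tested.

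Leaving out 1 library gave 26 to 29 calls in the time course, 6 throughout for the Nr1h3 deletion, 0 to 2 for the STAB2 sort, 0 to 2 for Smad4 knockout Kupffer cells, 8 to 9 for Smad4 BMDMs, 7 to 8 for C57BL/6J BMDMs, 0 to 1 for Notch blockade and 2 to 3 for marrow monocytes. The STAB2 count was 0 without 1 STAB2-low library, whichever was left out, that of Smad4 knockout Kupffer cells 0 without control AT, control CA or TIM4+ knockout GC, and that of Notch blockade 0 without LY411575 replicate 3. Quantile normalization, which ended the calls of Pparg at 72 h against monocytes (0.87) and of Rxrb with DLL4 in marrow monocytes (0.997), moved the median of all genes by over 0.1 in 8 comparisons and by up to 0.205. Where 1 library of a group was left, it was assumed to vary like the other groups. The causes were not tested.

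By the rule that every pair of libraries with the same number correlate above 0.1 in its deviations from the group means, replicate numbers paired the libraries of no table. These correlations lay between -0.225 and 0.339 for the Nr1h3 deletion, 0.0574 and 0.137 for the STAB2 sort, -0.261 and 0.0665 for Smad4 BMDMs, -0.105 and 0.0559 for C57BL/6J BMDMs, -0.107 and 0.0496 for Notch blockade, and 0.0125 and 0.116 for marrow monocytes. The 0.339 belonged to TIM4- and TIM4+ knockout Kupffer cells of the same number, and the -0.225 to control and TIM4- knockout Kupffer cells. All same-numbered pairs of the STAB2 sort were positive. The rule takes each table as a whole, so it does not decide whether gates sorted from the same mouse were paired. Too few numbers were shared for a block in the time course and in Smad4 knockout Kupffer cells. With replicate numbers as a block, Rxra with LY411575 stood at -0.996, just under 2-fold, so that Notch blockade gave 0 calls, and no other receptor call was lost. This repeats the value without treated replicate 3, since no control shares its number and the block leaves it no weight. Numbers of the antibody libraries followed the titles, which differ in part from those in the column names.

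Over the lists, 107 counts held within 1.5 times under every alternative and 54 did not. For single listed genes, 421 calls were followed, each of a gene in a comparison, and 335 of them were kept under every alternative. These were the calls with the largest differences per list and comparison, so a gene can be counted repeatedly and calls with smaller differences are not covered. Groups of 2 libraries and the few reads of Nr1h3 in STAB2-sorted cells limit the precision.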
